A study of Mus musculus with 9 samples.

Results

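Methylation was followed at 5 genes, Drd2, Adora2a, Penk, Gpr6 and Sp9, which are used to mark the striatal projection neurons of the indirect pathway. They were taken by name and by no measured value, though earlier results of these data were known at the time, and are 5 of 49550 genes that the RefSeq table of mouse assembly GRCm38.p6 places on the autosomes and X. The data are 9 whole-genome bisulfite libraries made from DNA of frozen punches of the nucleus accumbens, the ventral part of the striatum. Bisulfite turns unmethylated cytosine into a base read as T, so the methylation level is the percentage of calls at CpGs that stayed C, and hydroxymethylated cytosines are counted with it. The labels put 5 libraries in a Control group (numbers 2, 3, 4, 5 and 8) and 4 in a Susceptible group (numbers 2, 3, 6 and 7). All are given as C57BL/6J males, 8 weeks old, with the same text on every library: 10 daily social defeats by a CD1 aggressor. The sources used here do not give the handling of Control mice or the scoring of susceptibility. Nothing in the labels says outright that each library is a different mouse, so p-values measure the spread between these libraries.

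Projection neurons of the striatum fall into a direct and an indirect pathway. Indirect pathway cells carry the dopamine D2 receptor, which lowers cyclic AMP, together with the adenosine A2a receptor, which raises it, and they release the opioid peptide enkephalin. In vertebrates the CpG-rich starts of genes in use tend to be free of methylation, while the bodies of most genes are methylated. A punch holds many cell types, so a level is an average over them, and a change in the share of a cell type cannot be told apart from a change within its cells.

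The 5 genes lie on 4 chromosomes (GRCm38.p6). Drd2, the D2 receptor gene, spans chr9:49340360-49408177 on the plus strand, 67818 bp. Adora2a, the A2a receptor gene, spans chr10:75316877-75334792, 17916 bp. Penk, which encodes the precursor of the enkephalins, spans chr4:4133536-4138815, 5280 bp. Gpr6, an orphan receptor of the G protein-coupled family with a high basal effect on cyclic AMP, spans chr10:41069977-41072290 on the minus strand, 2314 bp. Sp9, a zinc finger transcription factor needed for indirect pathway neurons to develop, spans chr2:73271926-73275771 on the plus strand, 3846 bp. The table used gives no strand for Adora2a and Penk, so the CpG-richer end was taken as the start: the left end of Adora2a, with 105 CpGs within 1 kb against 37 at the other end, and the right end of Penk, with 94 against 38. At Drd2, Gpr6 and Sp9 the end given by the strand was also the CpG-richer one. The last part of Drd2 overlaps the long noncoding RNA gene Gm46111, and calls there belong to both. Part of Specc1l lies within 5 kb of Adora2a. Exons and introns were not annotated here.

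RefSeq promoter windows of GRCm38.p6, 250 bases before to 50 bases after a transcription start, were found for Drd2, Gpr6 and Sp9. They are shown because every CpG in them that all 9 libraries listed read under 10% methylated as a mean of the 9. Each is printed 5′ to 3′ on the strand of its gene, with every CG in capitals. The windows are chr9:49340153-49340452 (plus) for Drd2, chr10:41072241-41072540 (minus) for Gpr6 and chr2:73271676-73271975 (plus) for Sp9.
Drd2: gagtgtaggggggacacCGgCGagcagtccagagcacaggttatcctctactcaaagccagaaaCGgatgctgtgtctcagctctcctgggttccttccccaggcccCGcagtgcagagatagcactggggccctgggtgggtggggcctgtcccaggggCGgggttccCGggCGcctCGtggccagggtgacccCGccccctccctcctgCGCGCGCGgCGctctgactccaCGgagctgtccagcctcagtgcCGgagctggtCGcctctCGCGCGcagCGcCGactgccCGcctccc
Gpr6: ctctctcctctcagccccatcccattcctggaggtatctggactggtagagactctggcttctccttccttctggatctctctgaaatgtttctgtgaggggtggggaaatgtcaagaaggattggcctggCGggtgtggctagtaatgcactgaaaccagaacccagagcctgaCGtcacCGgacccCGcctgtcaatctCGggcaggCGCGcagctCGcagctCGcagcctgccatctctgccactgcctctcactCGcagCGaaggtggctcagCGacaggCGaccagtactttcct
Sp9: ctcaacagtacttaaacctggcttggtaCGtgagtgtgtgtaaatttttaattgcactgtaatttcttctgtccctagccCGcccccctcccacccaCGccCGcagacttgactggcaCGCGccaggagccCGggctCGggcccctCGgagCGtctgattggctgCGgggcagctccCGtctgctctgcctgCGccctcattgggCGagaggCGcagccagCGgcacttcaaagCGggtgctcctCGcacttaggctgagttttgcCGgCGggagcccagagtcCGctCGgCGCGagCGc
The Drd2 window holds 23 CGs, the Gpr6 window 13 and the Sp9 window 25, against a median of 7 over all 32619 windows of the table. All 9 libraries listed 6, 13 and 13 of them. Mean methylation of the window was 1.64% ± 1.24 (SD, n = 9) at Drd2, 1.79% ± 1.69 (SD, n = 9) at Gpr6 and 2.65% ± 1.41 (SD, n = 9) at Sp9. Susceptible minus Control was +1.56 points at Drd2 (0.947% in Control, 2.51% in Susceptible), +0.147 at Gpr6 and +0.463 at Sp9, not tested. At Drd2, the CpGs at 49340173 and 49340217 averaged 11.2% and 12.3% in Susceptible libraries, and 1.43% and 0% in Control libraries. These 2 were chosen after their values were seen, on 13 to 42 calls per library, with SDs of 7.63 and 9.47 points. Of the others that all 9 libraries listed, the CpG at 49340170 went the same way. The CpG at 49340313 read 0% in both groups, and those at 49340408 and 49340418 went the other way. The Drd2 window rests on 144 to 987 calls per library, the Gpr6 window on 371 to 895 and the Sp9 window on 617 to 1041. Each of 5 sets of letters was searched on both strands. The GC box GGGCGG stands 2 times in the Drd2 window, 1 time in the Sp9 window and 0 times in the Gpr6 window, and 35.9% of all windows hold it. Only the Gpr6 window of the 3 holds the cAMP response element TGACGTCA, 1 time, a run present in 1.80% of all windows. Its shorter form TGACG matches 2 times at Gpr6, both inside that element, and is in 20.9% of windows. The CCAAT box CCAAT was found 2 times at Sp9 and 1 time at Gpr6 (37.6% of windows), and TATAAA in none of the 3 (13.7% of windows). A match describes the letters and says nothing of binding.

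Listed calls summed to 313475624 to 570984634 per library, with every Susceptible library above every Control library, and autosomal methylation was 74.5 to 77.1%. Each listed cytosine has at least 10 calls. Strand disagreement was taken as the mean squared difference between strands, at autosomal CpGs of middle level read on both. It was 18.4 and 19.7 times that of binomial sampling in Control 5 and Control 8, against 2.38 to 6.10 times in the other libraries. In the set of 8 genes shared by striatal projection neurons, the mean gene body level was 57.6% in Susceptible 6 and 58.9% in Susceptible 7, and 47.8 to 52.5% in the other 7 libraries. For astrocyte markers, the mean level at gene starts was 35.6% in Susceptible 7 and 47.2 to 52.8% elsewhere. Over the start ±1 kb, all 8 shared striatal genes and all 8 direct pathway genes stood under 20%. So did 5 of 8 cortical projection neuron, 2 of 6 interneuron and 5 of 7 oligodendrocyte genes. In the remaining lists it was 2 of 6 astrocyte, 0 of 6 microglia and 1 of 4 endothelial genes. Of all 42525 gene starts tested, 33.4% did, but these include genes of every type, with a median of 76.2%. The median of 19324 protein-coding starts was 10.3%, so the share under 20% is larger among them.

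All 5 indirect pathway genes had low methylation at their starts. Over the start ±1 kb the mean of the 9 libraries was 15.7% ± 3.59 (SD) at Drd2, 8.25% ± 1.68 at Adora2a, 6.91% ± 1.58 at Sp9, 5.58% ± 1.35 at Penk and 4.03% ± 1.76 at Gpr6. Such levels are common: the median of 19324 protein-coding starts was 10.3%, and the 5 genes stood between the 29.1 percentile (Gpr6) and the 56.9 percentile (Drd2). Within libraries, 9 of the 10 pairs of genes differed (exact two-sided sign-flip permutation test, n = 9, Benjamini-Hochberg over 10 pairs). Drd2 was above Adora2a by 7.43 points ± 4.03 (SD) and above Gpr6 by 11.7 points ± 3.58, each in 9 of 9 libraries (exact p = 0.00391, the smallest possible, adjusted 0.00651). Adora2a exceeded Sp9 by 1.34 points in 8 of 9 libraries (exact p = 0.0195, adjusted 0.0244), a call lost without Control 5 and Control 8 (0.925 points, adjusted p = 0.0868). It was also lost over the CpGs listed in all 9 libraries (0.779 points, adjusted p = 0.25 in the same exact test), and the sign turned when each of these CpGs had equal weight (−0.229 points, adjusted p = 0.688). Penk exceeded Gpr6 by 1.55 points in 7 of 9 (exact p = 0.0273, adjusted 0.0304), and that call was lost when Control 3, 4 or 5 or Susceptible 3, 6 or 7 was left out. Penk and Sp9, neighbours in the order, did not differ beyond their spread (−1.34 points ± 2.15, exact p = 0.125).

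The order of the starts rests on how far the window reaches. Within ±500 bp the means were 4.40% at Drd2, 2.89% at Adora2a, 1.85% at Penk, 5.53% at Gpr6 and 5.98% at Sp9. In this window Sp9 was above Drd2 by more than the spread within libraries (Drd2 minus Sp9 −1.58 points, exact sign-flip test, adjusted p = 0.0195, n = 9), while Gpr6 was not shown to differ from Drd2 (−1.13 points, adjusted p = 0.295 in the same exact test) or from Adora2a (Adora2a minus Gpr6 −2.64 points, adjusted p = 0.0614). Over ±2 kb they were 26.0%, 17.4%, 8.04%, 8.27% and 5.78% in that order of genes. In 200-bp bins, the run of bins under 20% around the start reached from 400 bp upstream to 800 bp downstream at Drd2 and Penk, and to 1000 bp downstream at Adora2a. At Gpr6 it reached from 200 bp upstream to 1600 bp downstream. The Sp9 run began 1000 bp upstream and was still under 20% at the last bin, 3000 bp downstream, over 322 CpGs. Past the downstream end of the run, the next bin read 53.8% at Gpr6, 29.0% at Adora2a, 27.1% at Drd2 and 20.8% at Penk. Before the upstream end, it read 77.8% at Drd2, 55.4% at Adora2a, 27.8% at Gpr6, 25.8% at Penk and 22.4% at Sp9. The ends of the Penk run thus lie close to the 20% limit. Penk also had a bin of 1.16% from 1600 to 1400 bp upstream. Bins that some library did not list were passed over, and the 20% limit was chosen with the levels in view.

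**Figure D1:**
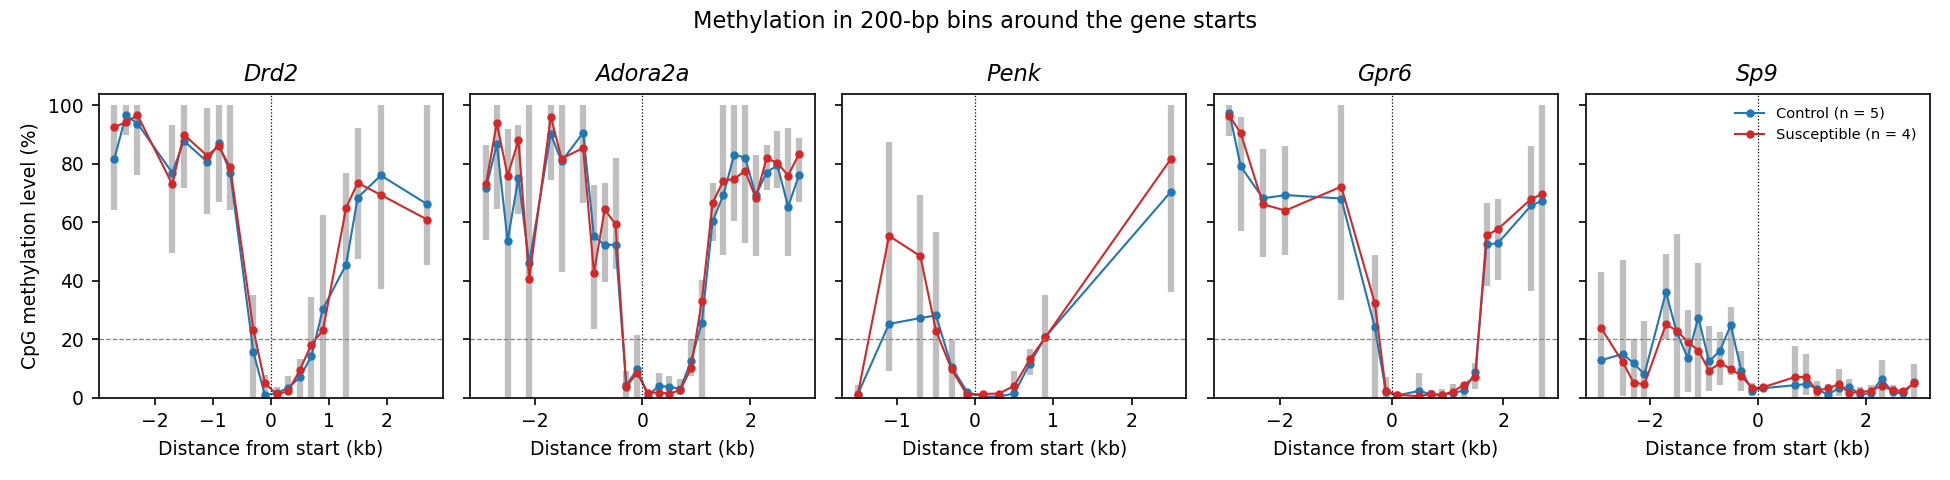
Mean CpG methylation (%) of Control (n = 5) and Susceptible (n = 4) libraries in 200-bp bins against distance from the gene start (kb), for bins that all 9 libraries listed. Grey bars span the lowest to the highest library and the dashed line marks 20%. The 5 genes are low at the start, and Sp9 stays low 3000 bp into the gene.

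No start of the 5 genes passed the test between Control and Susceptible libraries. In the quasi-binomial model with the moderation formulas of limma's squeezeVar, 0 of the 5 starts had an adjusted p under 0.05 and 0 an unadjusted p under 0.05. With limma on logit levels the counts were also 0 and 0. Over all 42525 gene starts tested, the model called 0% after adjustment and 4.59% at an unadjusted p under 0.05 (limma 0% and 3.64%). The 2 groups overlapped at all 5 starts, and over all starts they did not overlap at 1.74%.

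At Drd2 the start read 13.3, 12.9, 23.0, 14.7 and 18.1% in the Control libraries numbered 2, 3, 4, 5 and 8. It read 15.3, 13.8, 11.5 and 18.5% in the Susceptible libraries numbered 2, 3, 6 and 7. Control 4 was the highest library and Susceptible 6 the lowest, and the groups overlapped. Susceptible minus Control was −1.62 points (SE 2.40), with means of 16.4% ± 4.23 (SD, n = 5) and 14.8% ± 2.94 (SD, n = 4) (exact permutation p = 0.563, 0.706 after Benjamini-Hochberg over 5 genes). Without Control 4 the difference was +0.0363 points. In the promoter window of Drd2 printed above it was +1.56 points, a value not tested, and libraries did not all list the same CpGs there. Over the start ±500 bp it was −0.444 points, and in the tile chr9:49340001-49341000 across the start −0.171 points.

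At Adora2a the Control libraries read 7.53, 7.51, 7.65, 11.5 and 10.5%, and the Susceptible libraries 6.88, 7.07, 8.80 and 6.84%, in the order of their numbers. The highest values were those of Control 5 and Control 8, where the strands disagreed most, and 3 of 4 Susceptible libraries lay below every Control library. The difference was −1.54 points (SE 0.975), from 8.93% ± 1.91 (SD, n = 5) to 7.40% ± 0.942 (SD, n = 4) (exact permutation p = 0.230, adjusted 0.575). It was −0.168 points without Control 5 and Control 8.

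The start of the enkephalin gene Penk read 3.40, 7.23, 5.23, 4.08 and 7.12% in Control libraries and 4.80, 6.92, 5.89 and 5.53% in Susceptible libraries. All Susceptible values lay inside the Control range. The difference was +0.370 points (SE 0.893) (exact permutation p = 0.706, adjusted 0.706, n = 5 and 4).

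For Gpr6 the values were 3.88, 3.65, 4.18, 2.11 and 8.16% in Control and 4.14, 4.66, 3.08 and 2.43% in Susceptible libraries. Control 8 stood highest and Control 5 lowest. The difference of −0.820 points (SE 1.12; exact permutation p = 0.643, adjusted 0.706, n = 5 and 4) became +0.120 points without Control 8.

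For Sp9 the values were 7.47, 8.10, 5.71, 9.38 and 7.03% in Control and 5.14, 6.37, 8.39 and 4.64% in Susceptible libraries. Both lowest values were Susceptible, but Susceptible 6 lay above 4 of 5 Control libraries. The difference was −1.40 points (SE 1.03), from 7.54% ± 1.35 (SD, n = 5) to 6.14% ± 1.67 (SD, n = 4) (exact permutation p = 0.206, adjusted 0.575), and −0.196 points over the CpGs listed in all 9 libraries. Each of these levels rests on 1867 to 4608 calls, which give 95% Wilson intervals of ±0.584 to ±1.73 points, counting error only.

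Gene bodies set the 5 genes further apart than their starts. The mean body level was 70.5% ± 2.16 (SD, n = 9) at Drd2, 65.0% ± 4.38 at Adora2a, 35.4% ± 6.28 at Penk, 5.71% ± 1.46 at Gpr6 and 3.15% ± 0.928 at Sp9. Among 20097 protein-coding bodies (median 72.4%), Drd2 stood at the 46.4 percentile and Adora2a at the 36.9 percentile. Penk stood at the 10.8 percentile, Gpr6 at 2.06 and Sp9 at 1.14. All 10 pairs differed within libraries (exact sign-flip permutation p = 0.00391 to 0.0117, adjusted 0.00488 to 0.0117, n = 9).

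The order over bodies changed when the low start was set aside. With the first 1 kb left out, the bodies read 79.8% ± 2.09 (SD, n = 9) at Drd2, 79.3% ± 4.27 at Adora2a and 81.0% ± 6.45 at Penk. No pair of these 3 passed the threshold: Drd2 minus Penk was −1.21 points (adjusted p = 0.595), Drd2 minus Adora2a was +0.481 points (0.613) and Adora2a minus Penk −1.69 points (0.327), all exact sign-flip permutation tests with n = 9. Gpr6 and Sp9 stayed low without their first 1 kb, at 10.4% ± 2.44 and 2.98% ± 1.01.

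**Figure D2:**
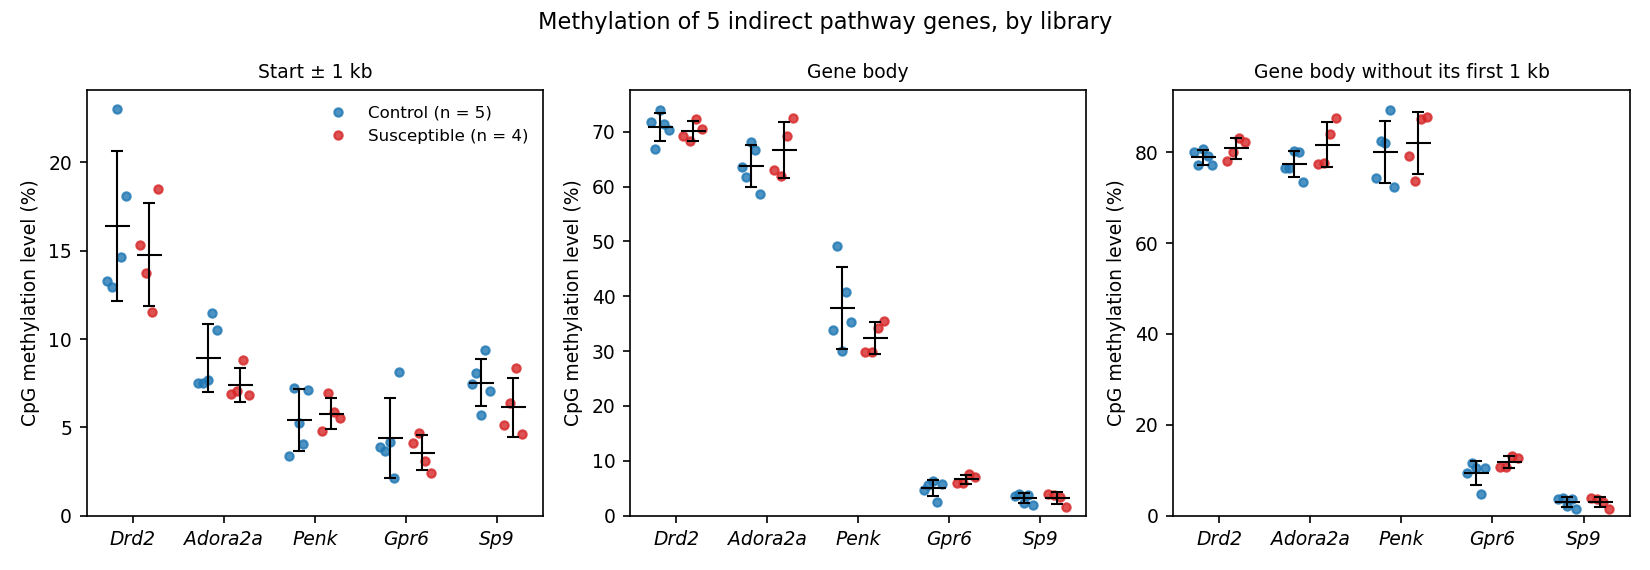
CpG methylation (%) of the 5 genes by library over the start ±1 kb, the gene body and the body without its first 1 kb; points are libraries (Control n = 5, Susceptible n = 4), bars the mean ± SD. The groups overlap in every panel, and Penk joins Drd2 and Adora2a at about 80% once its first 1 kb is left out, with 81.0% at Penk.

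No gene body of the 5 passed the test between groups. The same model called 0 of 5 bodies after adjustment and 0 at an unadjusted p under 0.05, and limma called 0 and 0. Of all 39095 bodies tested it called 0% and, unadjusted, 4.59% (limma 0% and 3.93%). The groups overlapped at all 5 bodies, against 1.56% of all bodies where they did not.

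The Drd2 body read 71.8, 66.9, 73.9, 71.4 and 70.3% in Control and 69.2, 68.3, 72.4 and 70.6% in Susceptible libraries. Control libraries held both the lowest and the highest value. The difference was −0.742 points (SE 1.46; exact permutation p = 0.667, adjusted 0.833, n = 5 and 4), +0.0190 points without Control 4 and −2.11 points without Susceptible 6 and Susceptible 7.

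The Adora2a body read 63.5, 61.7, 68.2, 66.6 and 58.6% in Control and 63.1, 62.0, 69.1 and 72.5% in Susceptible libraries. Susceptible 6 and Susceptible 7 were the highest of all 9, and they are the libraries in which the shared striatal genes also read highest. The difference was +2.94 points (SE 3.04), from 63.7% ± 3.82 (SD, n = 5) to 66.7% ± 5.02 (SD, n = 4) (exact permutation p = 0.357, adjusted 0.595). Without these 2 libraries it was −1.22 points, a setting chosen after the data were seen.

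The Penk body read 33.8, 49.2, 29.95, 40.9 and 35.3% in Control and 29.9, 29.8, 34.2 and 35.5% in Susceptible libraries. Control 3 was the highest and 2 Susceptible libraries the lowest. The difference was −5.46 points (SE 3.65; exact permutation p = 0.286, adjusted 0.595, n = 5 and 4). Without Control 3 it was −2.61 points. Over the 32 CpGs that all 9 libraries listed, still weighted by calls, Control 3 read highest, at 55.8%, and the difference was −4.56 points. Over the body without its first 1 kb the sign turned, to +1.91 points. Control 3 read 82.5% there, against a mean of 81.0%, and 3.51% in the start tile chr4:4138001-4139000. The whole-body level sums calls of the low start and of the rest, so it can also move with their split. The part of that split was not tested. With only libraries 2 and 3 of each group, the replicate block, the difference over the whole body was −11.6 points.

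The Gpr6 body read 4.70, 5.60, 6.24, 2.53 and 5.83% in Control and 5.87, 5.89, 7.62 and 7.08% in Susceptible libraries. Control 5 was the lowest, and Control 4 alone among Control libraries reached the Susceptible range. The difference was +1.63 points (SE 0.794), from 4.98% ± 1.48 (SD, n = 5) to 6.61% ± 0.875 (SD, n = 4) (exact permutation p = 0.0952, adjusted 0.476). It was +1.02 points without Control 5 and +0.899 points without Susceptible 6 and Susceptible 7.

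The Sp9 body read 3.63, 3.96, 2.31, 3.78 and 1.99% in Control and 3.87, 3.86, 3.40 and 1.58% in Susceptible libraries. The group means lay 0.0415 points apart (exact permutation p = 0.976, adjusted 0.976, n = 5 and 4). Bodies rest on 1488 to 23569 calls per library.

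**Figure D3:**
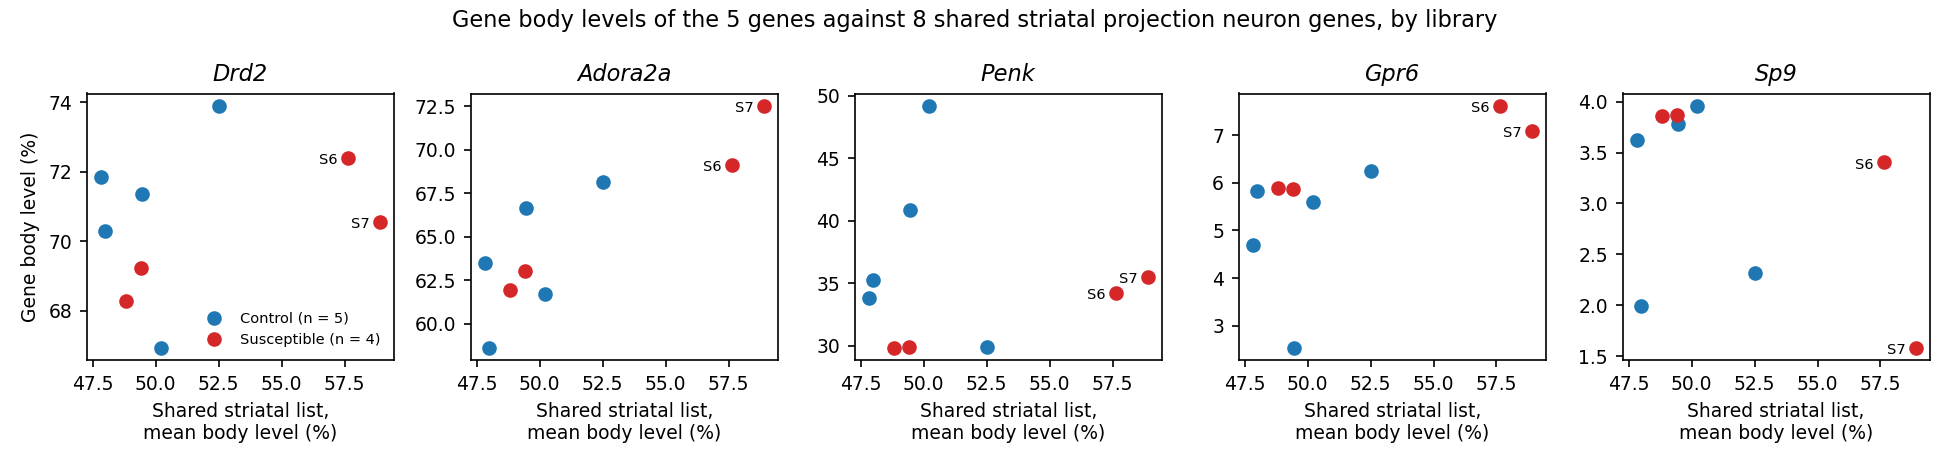
Gene body methylation (%) of each of the 5 genes against the mean body level (%) of 8 shared striatal projection neuron genes, 1 point per library (Control n = 5, Susceptible n = 4). Susceptible 6 (S6, 57.6%) and Susceptible 7 (S7, 58.9%) stand apart on the horizontal axis. Over the whole body they are the highest of the 9 for Adora2a and Gpr6 but not for Drd2, Penk or Sp9. Without its first 1 kb (not plotted here), the Drd2 body read highest in them, at 83.2% and 82.3%, against 77.2 to 80.7% elsewhere. Penk then read 87.4% and 87.8% in them, below only Control 5 at 89.2%. Sp9 read 3.01% and 1.39%, below Control 3 at 3.90%.

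Along the loci, 1-kb tiles from 5 kb upstream to 5 kb downstream of the genes numbered 153, and 120 of them reached the minimum of 3 CpGs and 20 calls in each library. Drd2 had 61 tested tiles, of which 57 read 60% or more and 1 read under 20%. Adora2a had 26 of 28 at 60% or more, Penk 6 of 10 and Gpr6 7 of 10. At Sp9 all 11 tested tiles, including those outside the gene, read under 20%, while 30884 of 1041809 tiles did so over the genome. The tiles outside Sp9 that missed the minimum read higher, on few calls in some libraries. They read 40.6% (chr2:73266001-73267000), 47.6% (chr2:73267001-73268000) and 34.7% (chr2:73276001-73277000). The lowest tile of each gene read 4.80% at Drd2 (chr9:49340001-49341000), 4.12% at Adora2a (chr10:75317001-75318000), 2.95% at Penk (chr4:4138001-4139000), 1.52% at Gpr6 (chr10:41071001-41072000) and 2.84% at Sp9 (chr2:73273001-73274000). All 5 lie in the gene or across its start.

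Drd2 also held 2 separate tiles of middle level far inside the gene. Chosen after their values were seen, the tiles chr9:49386001-49387000 and chr9:49389001-49390000 read 34.0% ± 9.72 and 48.3% ± 19.4 (SD, n = 9), with tiles of 81.7% and 85.7% between them. In the first of these, Control 5 read 13.2% and Control 8 23.3%, against 33.9 to 43.1% in the other 7 libraries. In the second, Control 5 and Control 8 were again lowest, at 18.7% and 27.4%, and Susceptible 7 highest at 80.4%. Susceptible minus Control was +10.6 points in the first (exact permutation p = 0.0952, n = 5 and 4) and +20.8 points in the second (exact permutation p = 0.135), the largest difference among the 120 tested tiles. Both are among the 9 tiles at an unadjusted p under 0.05 (quasi-binomial p = 0.0266 and 0.0115, adjusted 0.997). Without Control 5 and Control 8 the differences were +3.28 and +10.1 points, and the second was +12.3 points without Susceptible 6 and Susceptible 7.

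None of the 120 tiles passed the test between groups. The quasi-binomial model called 0 after adjustment, 9 at an unadjusted p under 0.05 (7 higher and 2 lower in Susceptible), and limma 0 and 2. Over all 1041809 tiles the model called 0% and, unadjusted, 4.38%, with 2.18% higher and 2.19% lower, and limma 0% and 3.51%. The groups did not overlap in 2 of the 120 tiles, 1 higher and 1 lower, both in Drd2, against 1.56% of all tiles (0.598% higher and 0.96% lower). The smallest adjusted p was 0.997.

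The Drd2 tile chr9:49405001-49406000, in the stretch shared with Gm46111, read 94.7, 92.1, 90.6, 89.2 and 100% in Control and 77.3, 84.1, 77.4 and 69.7% in Susceptible libraries. Every Susceptible library was below every Control library. The difference was −16.2 points, from 93.3% ± 4.27 (SD, n = 5) to 77.1% ± 5.90 (SD, n = 4) (exact permutation p = 0.00794, the smallest possible, quasi-binomial adjusted p = 0.997). This tile has 6 CpGs and 83 to 163 calls per library, and the difference lay between −18.5 and −13.7 points when any 1 library was left out. It was named because its groups do not overlap. That fixes the exact permutation p at 0.00794 or 0.0159, and the sign when 1 library is left out, so neither is separate support.

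The Drd2 tile chr9:49387001-49388000, between those 2 tiles of middle level, went the other way, with 81.7, 81.1, 74.9, 72.3 and 75.7% in Control and 82.2, 86.1, 90.7 and 90.5% in Susceptible libraries. Control 2, the highest Control library, lay just below Susceptible 2, the lowest Susceptible library. The difference was +10.2 points, from 77.1% ± 4.11 (SD, n = 5) to 87.4% ± 4.01 (SD, n = 4) (exact permutation p = 0.0159, quasi-binomial adjusted p = 0.997). It was +7.06 points without Susceptible 6 and Susceptible 7. With only libraries 2 and 3 of each group, the replicate block, it was +2.79 points. This tile too was named because its groups do not overlap, which sets its permutation p in the same way.

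At Adora2a the tile of smallest p was chr10:75326001-75327000, inside the gene, which read 76.6, 77.4, 84.8, 69.9 and 62.8% in Control and 81.8, 78.4, 85.7 and 92.8% in Susceptible libraries. Control 8 was lowest and Susceptible 7 highest, and the groups overlapped. Its difference was +10.4 points on 768 to 2046 calls (exact permutation p = 0.0794, n = 5 and 4, quasi-binomial adjusted p = 0.997). It fell to +5.08 points without Control 5 and Control 8, and to +5.78 points without Susceptible 6 and Susceptible 7. With only libraries 2 and 3 of each group, the replicate block, it was +3.08 points.

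At Gpr6 the tile of smallest p, chr10:41065001-41066000, lies downstream of the gene and differed by −12.1 points on 115 to 269 calls (exact permutation p = 0.0556, n = 5 and 4, quasi-binomial adjusted p = 0.997). Penk and Sp9 had no tile at an unadjusted p under 0.05. Their smallest were chr4:4132001-4133000, downstream of Penk, at +11.3 points (exact permutation p = 0.286, n = 5 and 4), and chr2:73269001-73270000, upstream of Sp9, at −3.26 points (exact permutation p = 0.373). In the Penk tile the lowest libraries were Control 5 (39.1%) and Control 8 (58.6%), and without them the difference was +0.277 points. The Sp9 tile differed by −1.13 points without Control 8 and −1.75 points without Susceptible 6 and Susceptible 7.

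Spread between libraries was wide in some of the tested tiles. The Drd2 tile chr9:49358001-49359000 had an SD of 25.4 points: Control 8 read 8.87% and the other 8 libraries 75.2 to 92.7%. Among tested tiles, the widest of Adora2a (chr10:75331001-75332000) had an SD of 13.7 points, that of Penk (chr4:4132001-4133000) 14.6, that of Gpr6 (chr10:41064001-41065000) 11.2 and that of Sp9 (chr2:73268001-73269000) 8.10.

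More of these tiles read higher than lower in Susceptible libraries, namely 78 of 120 (65%), where 47.6% of all tiles did. The median difference was +0.991 points, against −0.181 points over all tiles. It was +0.463 points without Susceptible 6 (all tiles −0.406), +1.42 without Susceptible 7 (+0.319) and +2.11 without Susceptible 2 (−0.261). It was +1.92 points without Control 5 (all tiles −0.0776) and +0.285 without Susceptible 6 and Susceptible 7 (+0.218). Without Susceptible 6 alone 55% of the tiles read higher, against 45% of all tiles, and without Susceptible 7 alone 64.8% against 54.2%. By gene, 39 of 61 tiles read higher at Drd2, 19 of 28 at Adora2a, 9 of 10 at Penk, 7 of 10 at Gpr6 and 4 of 11 at Sp9. Tiles of 1 locus share libraries and neighbours, so these counts carry no test. Without Susceptible 6 and Susceptible 7, 62 of 122 tiles (50.8%) read higher, against 52.8% of all tiles. The replicate block uses only Control 2 and 3 and Susceptible 2 and 3. With it, 62 of 120 tiles (51.7%) read higher, against 53% of all tiles, and the median difference was +0.385 points, against +0.243 points. The excess in the share of tiles that read higher was thus absent under both settings. Both leave out Susceptible 6 and Susceptible 7, so they are not separate checks.

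**Figure D4:**
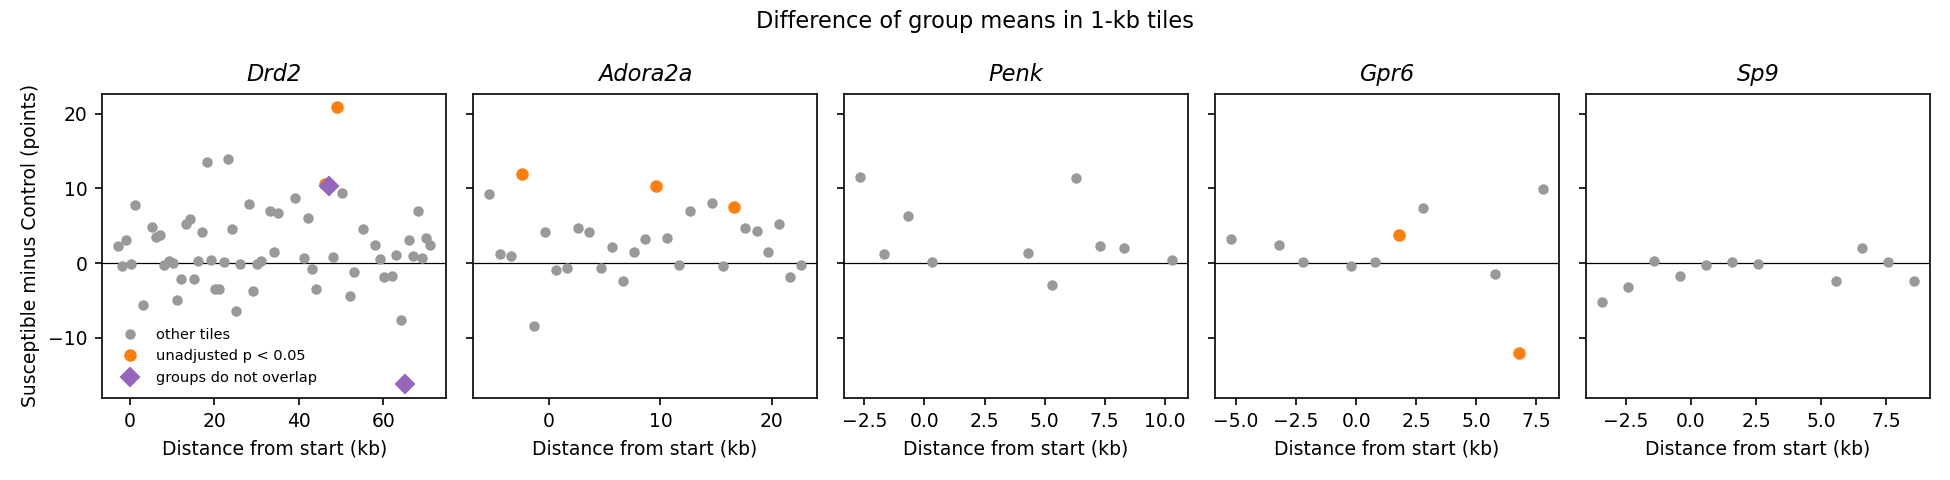
Susceptible minus Control mean methylation (percentage points) of each tested 1-kb tile against distance from the gene start (kb), for the 120 tiles of the 5 genes. Orange points had an unadjusted p under 0.05. Purple diamonds mark the 2 Drd2 tiles whose groups do not overlap, at −16.2 and +10.2 points. Sp9 tiles lie between −5.26 and +1.96 points.

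Levels of the 5 genes were also compared pair by pair across libraries. Over the gene ±5 kb, 0 of 10 pairs passed (exact permutation tests, n = 9, Benjamini-Hochberg over 10 pairs), with r from −0.615 (Adora2a and Sp9) to 0.553 (Drd2 and Adora2a). For the receptor genes Drd2 and Adora2a the exact permutation p was 0.118 (adjusted 0.395) and rho was 0.75 (exact p = 0.0255, adjusted 0.255). Leaving out Control 3 and Control 4, the libraries farthest from the Drd2 median, gave r = 0.598. For Adora2a and Sp9 the exact permutation p was 0.075 (adjusted 0.395), rho was −0.467 (0.212, adjusted 0.841), and r was −0.512 without Susceptible 7 and Control 8 and −0.309 without Susceptible 7 alone. Values of r for other pairs also moved with the libraries left out. Without Control 3 and Susceptible 6, the libraries farthest from the Penk median, r of Penk and Sp9 turned from 0.442 to −0.804. Without Control 3 and Control 4, r of Drd2 and Penk turned from −0.480 to 0.505 and that of Drd2 and Sp9 went from −0.580 to −0.111. Without Susceptible 7 and Control 8, r of Adora2a and Gpr6 turned from −0.359 to 0.353.

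The 30 genes that act around these 5 were read in the same way: partners of D2 and A2a receptor signalling, enzymes that process enkephalin, regulators of striatal neurons, and Ttc12 and Ankk1, which lie near Drd2. At their starts 26 of 30 stood under 20%, and the median level was 5.50%. Of all gene starts tested, of every gene type, 33.4% stood under 20%, but the median of protein-coding starts alone was 10.3%. The quasi-binomial model called 0 of 30 starts after adjustment and 2 at an unadjusted p under 0.05, both higher in Susceptible, and limma 0 and 1. The 2 were Arrb2, a beta-arrestin that binds activated receptors, at 2.92% ± 0.987 (SD) against 4.96% ± 1.21, and Adcy5, the main adenylyl cyclase of the striatum, at 1.42% ± 0.377 against 2.11% ± 0.299 (Control n = 5, Susceptible n = 4). Of all starts, 2.17% were higher at that p. Over bodies the model called 0 of 30 after adjustment and 3 unadjusted, all higher, and limma 0 and 0. These were Pcsk2, a convertase that cuts proenkephalin (74.4 to 77.7%), Arrb2 (60.7 to 67.1%) and Gng7, a G protein subunit of striatal neurons (50.7 to 55.4%), each from Control to Susceptible. Of all bodies, 1.48% were higher at that p. The median difference over the 30 bodies was +1.33 points, against −0.337 points over all bodies tested, and 19 of 30 read higher, against 42.1% of all bodies. Marker lists moved beside it: the shared striatal bodies read higher in 8 of 8 (median +4.16 points), and 5 of these 8 genes are among the 30. The mean of these 8 was 57.6% in Susceptible 6 and 58.9% in Susceptible 7. In Susceptible 2 and 3 it was 49.4% and 48.8%, inside the Control range of 47.8 to 52.5%. Astrocyte bodies read lower in 6 of 6 (median −2.47 points) and microglia bodies in 6 of 6 (median −1.25 points). The astrocyte mean was 69.8% in Susceptible 7, 75.4 to 75.8% in the other Susceptible and 75.8 to 77.6% in Control libraries. Bodies also read lower in 5 of 6 interneuron (median −1.33), 6 of 8 cortical projection neuron and 5 of 7 oligodendrocyte genes. Direct pathway bodies split 4 and 4, and endothelial bodies 2 and 2. The part of these lists in the shift was not tested. Without Susceptible 6 and Susceptible 7, 0 starts and 0 bodies of the 30 had an unadjusted p under 0.05. That setting keeps only Susceptible 2 and Susceptible 3 in their group, which lowers the power of the test. No share of all genes is given for it, so the fall in these counts cannot be set against that of all genes.

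Direct pathway genes were read for comparison. Their 8 starts read 2.41 to 19.0%, with a median of 8.77%, and their bodies 13.6 to 81.0% with a median of 57.2%. The model called 0 of 8 starts and 0 of 8 bodies after adjustment, 0 starts and 1 body at an unadjusted p under 0.05, and limma 0 throughout. That body was Chrm4, a muscarinic receptor of direct pathway neurons, with 39.4% in Control and 42.2% in Susceptible libraries. Of all starts and of all bodies tested, 4.59% had such a p (limma 3.64% and 3.93%), and 1.48% of bodies were higher at it. The mean body level of the 8 was 50.6 to 52.0% in Control and 51.0 to 53.2% in Susceptible libraries.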

How the data were processed

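The submitters' processing notes name Bismark, Bowtie, Picard and the build mm10, with no role or version. Per the file headers, each deposited file gives, by cytosine and strand of a CpG, the count of calls and 2 percent columns, for C and for T. The authors listed cytosines with at least 10 calls, and the deposited counts are whole and not normalised. Count times percent of C gives whole methylated calls, and the 2 strands of a CpG were added. Repeated entries for 1 cytosine (4 in Control 5, 8 in Control 8) were reduced to the first. Of the CpGs inside the RefSeq promoter windows, 396389 of 396389 fell on a CG. No column was left unmapped, and labels name no batch. Reads carry no molecular identifiers.

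Gene bounds, names and strands came from RefSeq tables of GRCm38.p6. Starts followed the strand for 26793 genes and the CpG-richer end for 22757. Calls were summed over the start ±1 kb, the gene body and 1000-bp tiles of the genome grid, with a minimum of 3 CpGs and 20 calls per library. A quasi-binomial logistic model on methylated and unmethylated calls was fitted to every feature. Dispersions followed limma's squeezeVar formulas, with a floor of 1. An F test of the group gave p, adjusted by Benjamini-Hochberg over all features. The scripts were tested on simulated data. Each difference also had an exact two-sided permutation test over the 126 splits of 9 libraries (smallest p 0.00794), pairs of genes an exact sign-flip test (smallest p 0.00391), and correlations an exact test over pairings.

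Alternatives were at least 20 calls per CpG, no CpGs above the 99.9th percentile of calls, and only CpGs listed in all 9 libraries. Further ones were other windows, equal weights, no minimum for tiles, no moderation and limma on logit levels (pseudocount 1 call). A replicate block used only the libraries numbered 2 and 3 of both groups. Each library was left out in turn, as were Control 5 with Control 8 and, added after seeing the data, Susceptible 6 with Susceptible 7. The named features are all 5 genes and, for each, the tile of lowest level, of largest SD and of smallest p, every tile whose groups do not overlap, and the pathway genes of smallest p. For each gene the 3 protein-coding genes of highest body correlation are also named. The 5 genes, the list of 30 related genes and the 8 marker lists were chosen with earlier results of these data known. Python 3.11.15 (numpy 2.4.6, scipy 1.17.1, pandas 2.3.3), R 4.3.3 and limma 3.58.1 were used.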

Additional observations from a re-analysis of the deposited data

Results flagged for a closer look

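Among 50 sets of 4 or 5 library values screened (each gene window and each named tile in each group), 5 had a library whose distance from its neighbours was large for the range of its group by Dixon's test. Chance gives about 1 such set in 20, but that rate does not hold for tiles named for their spread, and the Drd2 tile chr9:49358001-49359000 and the Gpr6 tile chr10:41064001-41065000 were named as those of largest SD among tested tiles. Susceptible 6 stood apart from the other Susceptible libraries at the Adora2a start, with 8.80%. Susceptible 7 did so at the lowest Drd2 tile (chr9:49340001-49341000), with 6.64%. The other 3 all concern Control 8, a library whose mean squared strand difference was 19.7 times that of binomial sampling. It read 8.87% in the Drd2 tile chr9:49358001-49359000, 7.73% in the Adora2a tile chr10:75317001-75318000 and 44.7% in the Gpr6 tile chr10:41064001-41065000. Whether strand disagreement has a part in these values was not tested. Without Control 8 the difference in that Drd2 tile was −1.55 points in place of +13.5 points.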

How the results depend on the processing

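No start, body or tile of the 5 genes was called between groups under any alternative, and no pair of genes passed the test of correlation. The pairs of genes that differed numbered 6 to 9 at starts and 7 to 10 over bodies. Signs turned only for differences that had missed the threshold and for pairs of genes under other windows or weights, and the cause was not tested beyond the change of window or libraries itself. With at least 20 calls per CpG the Sp9 body difference was −0.0463. With CpGs listed in all 9 libraries, differences were −1.60 at the Penk start, +0.0869 at the Gpr6 start and −0.780 in tile 4138001 of Penk. Without Control 5 and Control 8 they were −0.124 for the Sp9 body, +0.313 in tile 49340001 and −0.823 in tile 49358001 of Drd2, and −0.0706 in tile 41071001 of Gpr6. Without Susceptible 6 and Susceptible 7 they were +0.00181 for the Gpr6 start and −1.22 for the Adora2a body. In narrower or wider start windows, the Penk start gave −0.213 (±500 bp) and −0.943 (±2 kb), and the Gpr6 start +0.686 (±2 kb). Bodies without their first 1 kb gave +1.99 at Drd2, +1.91 at Penk and −0.0404 at Sp9. Within ±500 bp, Drd2 minus Gpr6 was −1.13 (exact sign-flip test, adjusted p = 0.295), Drd2 minus Sp9 −1.58 (0.0195), Adora2a minus Gpr6 −2.64 (0.0614), Adora2a minus Sp9 −3.09 (0.00781) and Penk minus Gpr6 −3.68 (0.00781). Within ±2 kb, Penk minus Gpr6 was −0.225 (0.719), Penk minus Sp9 +2.26 (0.0347) and Gpr6 minus Sp9 +2.48 (0.0347). With equal weights Adora2a minus Sp9 was −0.229 at starts (0.688). Over bodies without the first 1 kb, Drd2 minus Penk was −1.21 (0.595) and Adora2a minus Penk −1.69 (0.327).

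Leaving out 1 library at a time gave ranges across 0 of −2.86 to 0.0363 at the Drd2 start, −0.132 to 0.824 at the Penk start, −1.39 to 0.120 at the Gpr6 start, −1.73 to 0.0190 for the Drd2 body and −0.245 to 0.575 for the Sp9 body. For tiles they were −0.817 to 0.201 (49340001) and −1.55 to 19.4 (49358001) at Drd2, −0.161 to 0.331 (4138001) at Penk, −0.0772 to 0.558 (41071001) at Gpr6 and −0.139 to 0.754 (73273001) at Sp9.

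Numbers 2 and 3 occur in both groups, and the labels do not say that a number pairs them. Deviations from the group means correlated by 0.0258 and −0.0171 between libraries of the same number, so the numbers were not treated as pairs. The replicate block uses only Control 2 and 3 and Susceptible 2 and 3, and leaves out the other libraries. It called 0 starts, 0 bodies and 0 tiles, and 11 tiles had an unadjusted p under 0.05 in place of 9. No share of all tiles at that p is given for the block. Under it the differences were +1.44 at the Drd2 start, +0.634 at the Gpr6 start, −0.110 for the Adora2a body, −2.77 in tile 49358001 of Drd2 and −1.53 in tile 4132001 of Penk. It also gave −11.6 for the Penk body, +2.79 in tile 49387001 of Drd2 and +3.08 in tile 75326001 of Adora2a. Tiles that read higher in Susceptible numbered 62 of 120 under it, in place of 78.

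Tiles at an unadjusted p under 0.05 numbered 4 of 122 without Susceptible 6 and Susceptible 7 and 3 of 120 without moderation. No share of all tiles is given for these 2 settings, so the counts cannot be set against it. With limma it was 2 of 120, where 3.51% of all tiles had such a p. Of the 30 related genes, 0 to 5 starts and 1 to 7 bodies had such a p when 1 library was left out. No share of all genes is given beside these. Depth limits the tiles, with as few as 30 calls in a library.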

Other observations

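The gene body levels of other genes were compared with those of the 5 genes across libraries. Out of 20096 protein-coding genes compared by Pearson's r over 9 libraries, those most like Drd2 were Maml1 (r = 0.920), Vmn1r45 (0.914) and 4921524J17Rik (0.906). For Adora2a they were Bahd1 (0.972), Sez6 (0.954) and Ppp3ca (0.948), and for Penk N6amt1 (0.963), Hapln2 (0.923) and Cd5l (0.921). For Gpr6 they were Gm9595 (0.962), Cyp2c29 (0.961) and Gpr12 (0.9498), and for Sp9 Cfap44 (0.980), Cadps (0.969) and 4930447A16Rik (0.962). The Penk body read 49.2% in Control 3 and 29.8 to 40.9% in the other 8 libraries, and r was not computed without it. These are the highest of many values over few libraries, and they are given as a description.

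Which library was the highest or lowest in a tile was counted over the 120 tiles and over all tiles. Control 8 was the lowest in 22.5% of the 120 and 18.8% of all, and Control 5 the highest in 22.5% and 32.5%. Susceptible 6 was the highest in 16.7% of these tiles and in 8.44% of all tiles, and Susceptible 7 in 16.7% and 4.95%. Susceptible 7 was the lowest in 10.8% of these tiles and in 18.3% of all tiles.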
